A study of Mus musculus with 39 samples.

Results

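H3K27me3 was compared between P21 and P7 at the transcription start sites (TSS) of all genes in mouse cerebellar granule cells, the small excitatory neurons that fill the granular layer of the cerebellum. The mark was measured by chromatin immunoprecipitation and sequencing (ChIP-seq) with an antibody from CST. The 5 libraries of P21 and the 5 of P7 were chosen by their labels, 10 of the 39 libraries of the series. The P21 libraries came from nuclei of C57Bl/6J cerebella sorted for NeuN and NeuroD1. The P7 libraries came from granule cell progenitors of C57Bl/6J cerebella isolated on a Percoll gradient. Both were fixed with formaldehyde, and chromatin was sonicated for longer at P21. No transgene or mutation is named for either stage, and the labels leave out the sex, the number of animals and any pooling. Age, isolation, the kind of cell selected and sonication differ together, so they cannot be told apart in any difference given here. By the sample titles, 1 input library serves replicates 1 and 2 at either stage. The fit also held the 4 H3K27me3 libraries of P12, which enter the filter, the scaling and the estimate of the spread. Nothing says that replicates came from separate animals, so p-values measure the spread between libraries, which may be technical. Of 24045 TSS in the table, 18089 had enough counts to be tested for H3K27me3. With the P21 and P7 libraries only, 13281 TSS were tested, of which 4422 were higher and 3743 lower at P21.

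Trimethylation of lysine 27 on histone H3 is laid down by Polycomb repressive complex 2 (PRC2) through its methyltransferases Ezh1 and Ezh2. It is read by CBX proteins of Polycomb repressive complex 1, and it is taken off by the demethylases Kdm6a and Kdm6b or lost by dilution as cells divide. Its best known targets are CpG-rich promoters of developmental regulators such as the Hox genes, which stay silent outside their own tissues. In the postnatal cerebellum, granule cell progenitors divide in the external granule layer under Sonic hedgehog, leave the cell cycle, migrate inward and switch on the channels, receptors and synaptic genes of a mature neuron.

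The counts behind the comparison summed to 264093, 310711, 910778, 715341 and 623577 over all TSS in the P21 libraries, against 925735, 566960, 529047, 2035801 and 1016221 in the P7 libraries. Signal was more concentrated at P7: the 95th percentile of TSS counts was 5.00 to 10.3 times the median at P21 and 22.1 to 45.0 times the median at P7. A single scaling factor per library (the trimmed mean of M-values, TMM) cannot take up such a difference. Calls are therefore given with TMM, and many of them also with a trended scaling, a smooth curve per library. This curve takes out any difference that follows the level of the TSS. A call or fold change with no scaling named is from TMM and may not hold with the trended scaling. Levels are CPM, counts scaled to a common library size with the TMM factors, in a window at each TSS whose length no label gives. Input signal was not subtracted from them. Fold changes are edgeR's log2 fold changes of P21 over P7 with their standard error (SE), and a TSS is called where the Benjamini-Hochberg adjusted p is under 0.05.

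The label was checked at genes that define granule cells and the other cells of the cerebellum, a set picked for this check. H3K27me3 was low at the granule cell transcription factor genes Zic1 (2.3 to 9.7 CPM at P21 and 10.1 to 21.2 CPM at P7) and Zic2 (0 to 4.31 CPM at P21 and 0.851 to 36.3 CPM at P7). It was also low at Gabra6, which encodes a GABA-A receptor subunit of mature granule cells, with 10.8 to 19.4 CPM at P21 and 12 to 15.1 CPM at P7. H3K4me3, the mark of active promoters, averaged 27.3 CPM at P21 and 76.5 CPM at P7 at Zic1, and 45.3 CPM at P21 and 18.6 CPM at P7 at Gabra6 (n = 2 at P21 and 3 at P7). Of the 9 granule cell genes, with medians of 12.4 CPM at P21 and 14.9 CPM at P7 for H3K27me3, Pax6 had more of it at P7 (18.9 CPM at P21 and 57.6 CPM at P7), and Atoh1, a gene of progenitors, carried it at both stages (168 CPM at P21 and 103 CPM at P7). Among 12 genes of other cells the median H3K27me3 level was 218.5 CPM at P21 and 789.5 CPM at P7, but the level differed between them. Skor2 and Lhx5 of Purkinje cells and other inhibitory neurons, Pax2 and Gad1 of interneurons, Olig2 and Sox10 of oligodendrocytes and Cldn5 of vessels averaged between 128 and 271 CPM at P21 and between 668 and 1310 CPM at P7. The mark was lower at Slc32a1 of inhibitory neurons (16.7 CPM at P21 and 52.4 CPM at P7), Aif1 of microglia (23.5 CPM at P21 and 19.4 CPM at P7), Aldh1l1 of astrocytes (70.5 CPM at P21 and 72.1 CPM at P7) and Eomes of unipolar brush cells (39.8 CPM at P21 and 235 CPM at P7). H3K4me3 had medians of 37.1 CPM at P21 and 76.5 CPM at P7 over the 9 granule cell genes. Over the 12 genes of other cells they were 21.55 CPM at P21 and 19.65 CPM at P7. The sets overlapped in H3K4me3: Rbfox3 of the 9 had 18.6 CPM at P21 and 14.9 CPM at P7. Eomes of the 12 had 41.3 CPM at P21 and 71.6 CPM at P7. Neurod1, whose product was used in the sort, is listed at 0 in all ChIP libraries of both marks, as are 312 TSS in all, so it gives no check.

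The promoters of 4 genes are shown because each stands for 1 kind of result: a large fall, a large rise, a high level at both stages, and a low level that rose in a large gene family. Sequences run 250 bases before to 50 bases after the start annotated by RefSeq on GRCm38.p6, 5′ to 3′ on the strand of the gene, with CpG dinucleotides in capitals. Junb (chr8:84978699-84978998, minus strand) holds 21 CpG, Erbin (chr13:103920537-103920836, minus strand) 53, Tbx20 (chr9:24774254-24774553, minus strand) 26 and the olfactory receptor gene Olfr1120 (chr2:87357196-87357495, plus strand) 0.
Junb: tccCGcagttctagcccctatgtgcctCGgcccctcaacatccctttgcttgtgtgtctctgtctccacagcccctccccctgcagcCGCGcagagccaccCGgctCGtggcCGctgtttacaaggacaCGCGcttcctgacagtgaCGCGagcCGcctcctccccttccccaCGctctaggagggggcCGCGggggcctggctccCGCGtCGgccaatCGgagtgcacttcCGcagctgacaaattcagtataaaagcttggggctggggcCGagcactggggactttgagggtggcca
Erbin: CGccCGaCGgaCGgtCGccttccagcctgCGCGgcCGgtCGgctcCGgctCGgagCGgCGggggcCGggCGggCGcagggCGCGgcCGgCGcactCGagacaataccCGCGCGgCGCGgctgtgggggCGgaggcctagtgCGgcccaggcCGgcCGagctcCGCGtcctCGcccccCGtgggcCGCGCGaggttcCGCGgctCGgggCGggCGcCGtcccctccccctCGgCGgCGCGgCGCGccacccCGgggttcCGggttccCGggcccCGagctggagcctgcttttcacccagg
Tbx20: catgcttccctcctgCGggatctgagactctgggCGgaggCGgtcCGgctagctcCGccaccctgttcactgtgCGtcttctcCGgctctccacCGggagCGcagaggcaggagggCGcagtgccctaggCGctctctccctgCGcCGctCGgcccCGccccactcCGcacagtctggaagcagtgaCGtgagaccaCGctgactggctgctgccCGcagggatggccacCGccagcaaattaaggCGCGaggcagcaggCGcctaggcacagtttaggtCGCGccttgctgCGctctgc
Olfr1120: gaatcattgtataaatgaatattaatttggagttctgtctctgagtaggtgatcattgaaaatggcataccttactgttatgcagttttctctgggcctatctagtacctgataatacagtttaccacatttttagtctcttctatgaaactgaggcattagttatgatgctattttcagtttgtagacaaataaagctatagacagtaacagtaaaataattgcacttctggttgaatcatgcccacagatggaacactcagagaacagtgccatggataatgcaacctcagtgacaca
A sequence was matched for 13413 of 18089 TSS tested (74.2%), too few for a comparison of CpG content between all genes, which was therefore not made.

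With TMM, 4601 TSS were higher at P21 than at P7 (25.4% of those tested) and 4245 were lower (23.5%), so 48.9% were called in 1 direction or the other. After trended scaling the counts were 3778 higher (20.9%) and 3232 lower (17.9%). Both scalings called 2947 TSS higher (16.3%) and 2964 lower (16.4%). A gene list with shares near these does not stand out from all TSS. The falls were the larger changes: 1768 lower TSS had a log2 fold change below -2 and 272 below -4, whereas 360 of the higher TSS were above 2 and 4 were above 4. TSS that were lower had a median of 32.4 CPM at P21 and 147 CPM at P7, and TSS that were higher had a median of 32.2 CPM at P21 and 13.6 CPM at P7. Between all P21 and all P7 libraries there was no overlap at 1890 TSS with a higher level at P21 (10.4%) and at 3267 with a lower level (18.1%). Scaled by library totals alone, 12686 TSS were higher and 2429 lower, and the median log2 fold change of all TSS moved to 1.42, against 0.34 with TMM.

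The direction followed the level. In the lowest decile of TSS by mean level the median log2 fold change was 0.97, and in the highest decile it was -2.05. There, 94.3% of the TSS were lower with TMM, and the median was -0.13 with the trended scaling. Any family whose members all carry high H3K27me3 is therefore called lower as a group with TMM, and the trended scaling asks instead whether its members fell more than other TSS of the same level. Whether the background or the mark itself differed was not tested. In bulk chromatin, fewer cells with the mark and less of the mark per cell cannot be told apart either.

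**Figure D1:**
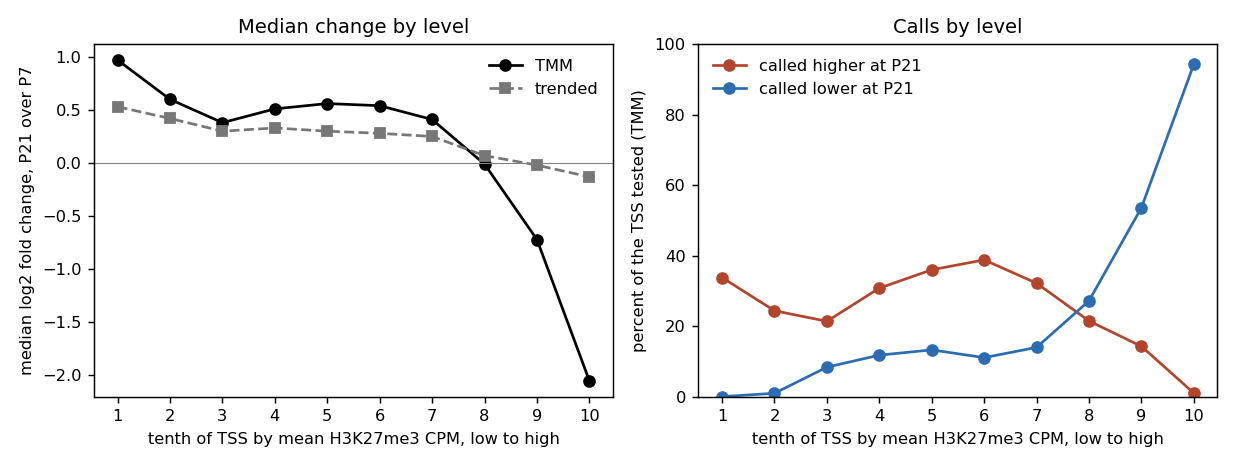
Left, the median log2 fold change of H3K27me3 (P21 over P7) in each decile of the 18089 TSS by mean level, with TMM (circles) and with the trended scaling (squares). Right, the percent of TSS in each decile called higher or lower at P21 with TMM; in the highest decile 94.3% were lower and 1.05% higher.

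Among the 15 largest falls, Car11, a carbonic anhydrase-related gene of the brain (chr7), had 13.2, 4.59, 13.6, 8.61 and 4.08 CPM in the P21 libraries, against 1037, 1367, 933, 914 and 921 CPM in the P7 libraries (-6.79 on the log2 scale, with SE 0.31 and edgeR's adjusted p = 1.68e-24). Only TSS without overlap between the stages could be picked for the 15 largest falls and the 15 largest rises. Junb, an immediate early transcription factor gene, had 5.26, 9.19, 6.79, 6.46 and 6.79 CPM at P21 and 539, 579, 536, 549 and 530 CPM at P7 (-6.31, SE 0.32), with little spread within either stage. Kcnk3, which encodes the leak potassium channel TASK-1, had 0, 0, 1.94, 2.15 and 1.36 CPM at P21 and 42.3, 39.0, 218, 149 and 55.4 CPM at P7 (-6.17, SE 0.45).

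Others of the 15 largest falls were Pcdh1 (-6.63), an adhesion gene; Tuba4a (-6.34), an alpha-tubulin gene; Nptx1 (-6.26), whose product clusters AMPA receptors at synapses; and Cacna1g (-6.21), the gene of a T-type calcium channel. Insyn1 (-6.19) encodes a protein of inhibitory synapses, Ache (-5.92) encodes acetylcholinesterase, Slc16a11 (-6.03) a member of the monocarboxylate transporter family, Rgl3 (-6.07) an exchange factor for Ral GTPases and Mmp23 (-6.02) a matrix metalloprotease. Ankrd34a (-6.31), an ankyrin repeat gene, and Tmem59l (-6.18), a membrane protein gene, were among them too. All 15 were also called lower with the trended scaling, at -4.84 to -6.57. H3K4me3 was tested at 14 of these TSS and was higher at P21 at 11 of them and lower at 0, and among all TSS tested for both marks 10.9% were higher and 10.6% lower in H3K4me3.

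Among the 15 largest rises, Erbin, the gene of a scaffold protein of epithelial and neuronal membranes, had 31.6, 57.4, 246, 187 and 107 CPM at P21 and 3.38, 9, 9.08, 6.80 and 1.5 CPM at P7 (4.54, SE 0.38, edgeR adjusted p = 6.77e-15). Its P21 libraries spread widely, with replicates 1 and 2 the lowest. Myc, a transcription factor gene that drives growth and division, had 92.1, 75.8, 182, 125 and 143 CPM at P21 and 6.76, 9, 6.06, 7.66 and 18 CPM at P7 (3.70, SE 0.31). Myo16, an unconventional myosin gene, had 168, 184, 253, 174 and 235 CPM at P21 and 13.5, 18, 0, 18.7 and 24.0 CPM at P7 (3.66, SE 0.30). Replicate 5 was the highest P7 library at both Myc and Myo16.

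Among the other large rises were Gas1 (3.89), the gene of a Sonic hedgehog co-receptor; Trib2 (4.23), a pseudokinase gene; Tox3 (4.53), of the HMG-box family; and Zeb2 (3.85), a zinc finger repressor gene. Zeb2os (4.42) runs antisense to Zeb2, and its annotated start (chr2:45111138) lies inside Zeb2 (chr2:44983512-45117442). Since no label gives the length of the window, reads shared between their windows could not be checked. Sox9 (3.75) and Tcf7l2 (3.74) encode transcription factors of neural progenitors and of Wnt signalling, Psat1 (3.6) an enzyme of serine synthesis and H3c10 (3.97) a replication-dependent histone H3. At Sox9 a peak lay within 1 kb of the TSS in 4 libraries of either stage, although its P7 mean was 2.64 CPM. Tsku (3.93), a secreted leucine-rich protein gene, Ccdc88a (3.77), an actin-binding protein gene, and Btbd1 (3.55), an adaptor gene of ubiquitin ligases, complete the set. All 15 were called higher with the trended scaling too, at 3.33 to 4.94. H3K4me3 was lower at P21 at 13 of these 15 TSS and higher at 0, and it was lower at 9 with the trended scaling. Among all TSS tested for both marks 10.6% were lower in H3K4me3 with TMM and 2.01% with the trended scaling.

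**Figure D2:**
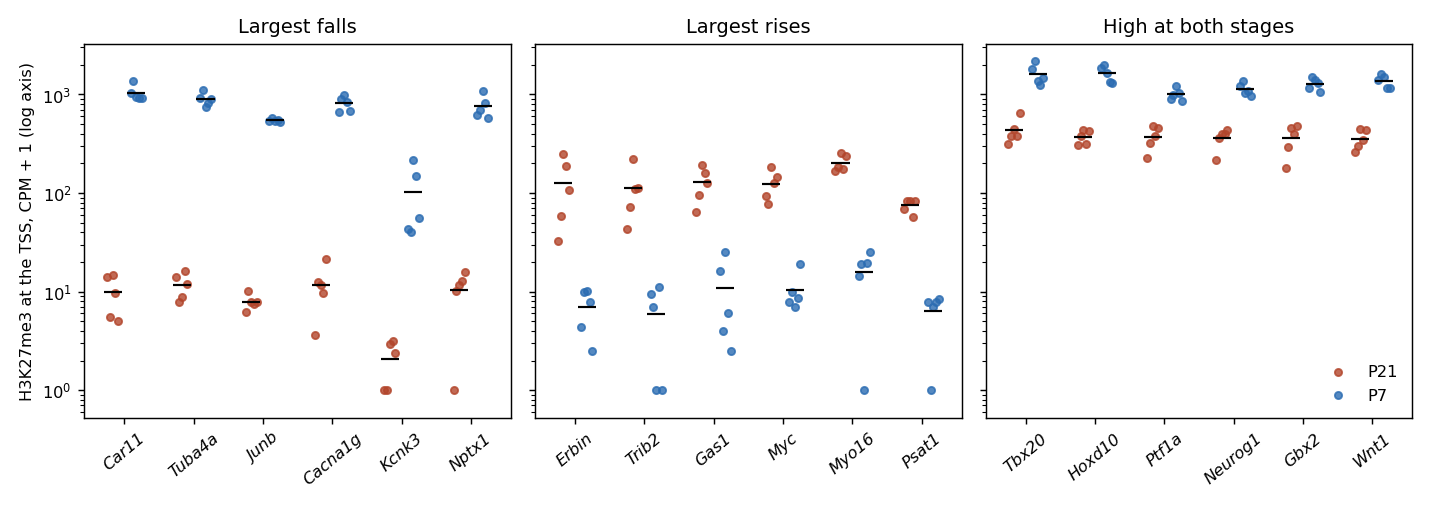
H3K27me3 at the TSS in each of the 5 P21 and 5 P7 libraries (CPM + 1, log axis) for 6 of the 15 largest falls, 6 of the 15 largest rises and 6 of the 12 TSS highest at both stages; points are libraries and black lines are means. Car11 sits between 4.08 and 13.6 CPM at P21 and between 914 and 1367 CPM at P7, and Myo16 between 168 and 253 CPM at P21 and between 0 and 24.0 CPM at P7.

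Genes of voltage-gated and leak channels lost the mark more often than they gained it. Of 88 potassium channel genes tested, 51 fell and 8 rose with TMM, and 40 fell and 7 rose with both scalings, against 16.4% and 16.3% of all TSS. Kcna2, a Shaker channel gene, had 15.8, 16.1, 22.3, 24.8 and 31.3 CPM at P21 and 489, 546, 639, 548 and 406 CPM at P7 (-4.56, SE 0.27). Kcnk4 (-5.01) and Kcnk12 (-4.87), of the leak channel family, and Kcnh3 (-3.84), of the EAG family, fell as well. Kcnma1, which encodes the large-conductance calcium-activated channel, rose (1.79), as did its regulatory subunit gene Kcnmb1 (1.16). The list had a median of -1.13 with TMM, and of -0.42 after trended scaling.

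Of 23 calcium channel genes 15 fell and 1 rose, and 12 and 1 with both scalings. Besides Cacna1g these were Cacna1i (19.1 CPM at P21 against 601 CPM at P7, -4.99), which also encodes a T-type channel, Cacna1e (10.7 against 478 CPM, -5.42), an R-type channel gene, and the auxiliary subunit gene Cacna2d2 (11.2 against 403 CPM, -5.13). Cacng5, of the gamma subunit family, had 0.62 (edgeR adjusted p = 0.0439), a call lost in 6 fits that left out 1 library, P21 replicate 3 or 5 or P7 replicate 2, 3, 4 or 5 (adjusted p = 0.054 to 0.201). Of 13 sodium channel genes 7 fell and 2 rose. Scn8a, the main sodium channel gene of the axon initial segment in mature neurons, fell by 2.88, and Scn3a, the gene of a channel of immature neurons, rose by 1.49. Of 4 HCN pacemaker channel genes 3 fell and 0 rose with both scalings, Hcn2 (6.81 CPM at P21 against 432 CPM at P7, -5.90) among them. Of 25 TRP channel genes 10 fell and 4 rose, and 6 and 4 with both scalings, with Trpm2 (-2.98) and Trpc5 (-2.38) among the falls.

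Receptor genes were split by family. Grin1, the obligatory NMDA receptor subunit gene, had 15.8, 4.59, 11.6, 19.4 and 12.2 CPM at P21 and 550, 666, 497, 482 and 430 CPM at P7 (-5.27, SE 0.28). Grin2c, of the subunit that mature granule cells take up, fell by 5.12, Grin2a by 3.24 and Grin3b by 2.18. These 4 fell with both scalings. The other 3 NMDA receptor genes did not pass the test: Grin2b, the subunit of immature neurons, had -0.60, Grin2d -0.03 and Grin3a 0.19. Among 19 GABA-A receptor genes 6 fell and 4 rose, shares near those of all TSS, and 5 and 3 with both scalings. Gabrd, of the extrasynaptic delta subunit of granule cells, averaged 20 ± 8.60 CPM at P21 and 677 ± 49.4 CPM at P7 (SD, n = 5 each), which is -5.06 on the log2 scale (SE 0.28). Gabra2 rose by 1.18. Gabra6 was not called (0.06, edgeR adjusted p = 0.906), and its level was below the medians of all TSS, 26.5 CPM at P21 and 20.6 CPM at P7.

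Of 8 metabotropic glutamate receptor genes 6 fell and 1 rose with TMM, and 3 and 1 with both scalings. Grm4, the main such receptor gene of granule cells, had a mean of 11.9 CPM at P21 and 563 CPM at P7 (-5.58). Grm7 rose by 1.01. Of 9 AMPA, kainate and delta receptor genes 4 fell and 1 rose with TMM, and 2 fell with both scalings, Grik1 (-1.13) among them. Grik3 had -1.49 with TMM but 0.40 with the trended scaling and was called in opposite directions. Of 18 acetylcholine receptor genes 6 fell (33.3%), with Chrna4 (-3.17) and Chrm4 (-2.25) among them, and 5 rose (27.8%), with Chrm1 (1.75) and Chrna6 (1.37) among them. Over all TSS 23.5% fell and 25.4% rose with TMM. Monoamine receptor genes fell at 23 of 32 TSS and rose at 3 with TMM, and fell at 13 with both scalings. Adra2c, an alpha-2 adrenergic receptor gene (-3.44), and Htr5a, a serotonin receptor gene (-2.90), were among those 13.

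Of 49 genes of transmitter release tested, 29 fell and 0 rose with TMM, and 28 of these fell with both scalings. Syt2, a fast calcium sensor gene of release, had 23.7, 45.9, 59.2, 53.8 and 76.1 CPM at P21 and 928, 1110, 1057, 1141 and 930 CPM at P7 (-4.35, SE 0.27). Slc17a7, the gene of the vesicular glutamate transporter of granule cells, had means of 18.8 CPM at P21 and 231 CPM at P7 (-3.61). Rims4 (-4.79), of the active zone, and Syngr3 (-4.46), of synaptic vesicles, fell as well. Among 53 genes of synaptic organizers and scaffolds 31 fell and 5 rose, and 24 and 3 with both scalings. Shank1, a postsynaptic scaffold gene, fell by 5.14, Lingo3 fell by 4.06 and Lrrtm1, an adhesion gene, fell by 3.47. Homer3, a scaffold gene of Purkinje cells, rose instead: 26.3, 29.9, 93.2, 59.2 and 59.8 CPM at P21 and 5.07, 9, 6.06, 10.2 and 8.98 CPM at P7 (2.75, SE 0.33).

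Of 29 immediate early genes tested 23 fell and 0 rose with TMM, and 21 fell with both scalings. The list's median was -2.88, against 0.34 over all TSS. Besides Junb they were led by Nr4a1 (10.2 CPM at P21 against 545 CPM at P7, -5.63), an orphan nuclear receptor gene, Egr4 (28.2 against 859 CPM, -4.93) and Npas4 (12.5 against 259 CPM, -4.34), a neuronal transcription factor gene. Of 10 genes of calmodulin-dependent kinases, their activating kinases and inhibitors, 7 fell with both scalings and 0 rose. These were Camk2b (-4.60), Camk2n1 (-3.88), which encodes an inhibitor of that kinase, Camkk2 (-3.77), Camkk1 (-3.63), Camk2a (-2.87), Camk4 (-1.77) and Camk1 (-1.31). Of 23 genes of regulators of G protein signalling 8 fell, led by Rgs8 (-4.51) and Rgs16 (-4.39), and 5 rose, among them Rgs13 (2.06). Of 19 phosphodiesterase genes 8 fell, among them Pde4b (-3.23) and Pde10a (-3.08), and 5 rose, among them Pde5a (2.68). With both scalings 5 of the phosphodiesterase genes fell and 3 rose. Over all TSS 23.5% fell and 25.4% rose with TMM, and 16.4% and 16.3% with both scalings.

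Of the peptide and growth factor genes that fell with TMM, only a part fell with both scalings. Of 39 neuropeptide genes 27 fell and 6 rose with TMM, and 13 fell and 5 rose with both. Vgf (-4.14) and Chga (-3.31), genes of secretory granule proteins, were among the 13, and Cort, the cortistatin gene, had 1.46, a call lost without P21 replicate 4 (edgeR adjusted p = 0.058). Of 19 genes of neurotrophins and their receptors 12 fell and 0 rose, and 7 fell with both scalings. Bdnf, a growth factor gene for granule cells, had means of 70.6 CPM at P21 and 750 CPM at P7 (-3.42), and Ntrk3, the receptor gene for neurotrophin-3, fell by 3.03. Of 17 genes of neurofilaments and microtubule-associated proteins 12 fell and 2 rose with both scalings. Mapt (-3.04), Map7 (-5.03) and the heavy neurofilament gene Nefh (-3.01) fell, and Dclk1, a doublecortin-like kinase gene, rose by 2.01. Of 13 tubulin genes 6 fell and 3 rose, the adult brain isotype gene Tubb4a (-1.83) among the falls and Tuba1b (1.67) among the rises. Of 15 carbonic anhydrase genes 9 fell with both scalings, with Car4 (-4.81) and Car10 (-4.71) after Car11.

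Axon guidance genes went both ways. Of 21 Eph receptor and ephrin genes 13 fell and 4 rose (11 and 4 with both scalings). Efna1 (-5.03) and Epha8 (-4.94) fell, and Ephb6 (2.58) and Epha6 (1.64) rose. Of 22 semaphorin, plexin and neuropilin genes 10 fell and 3 rose, with Plxna1 (-5.02) and Sema6b (-4.73) falling and Plxnb1 (2.84) rising. Of 16 genes of Slits, their Robo receptors, Unc5 receptors and Dcc, 6 fell and 3 rose. Slit3 (-4.69) and Unc5b (-4.19) fell, whereas Slit2 (1.35) and Dcc (1.93), the gene of a netrin receptor, rose. Ntn1, the gene of the netrin-1 ligand, rose by 2.98, with means of 139 CPM at P21 and 15 CPM at P7. Among adhesion genes, Cdh22 fell by 5.20 and Itga3 fell by 5.81, and Pcdh18 rose by 3.13, Cdh9 by 1.76 and Itgb8 by 2.17. Of 54 clustered protocadherin genes 21 fell and 0 rose, Pcdhga11 (-2.51) first; their reads can be shared between near-identical exons, so these counts are uncertain.

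**Figure D3:**
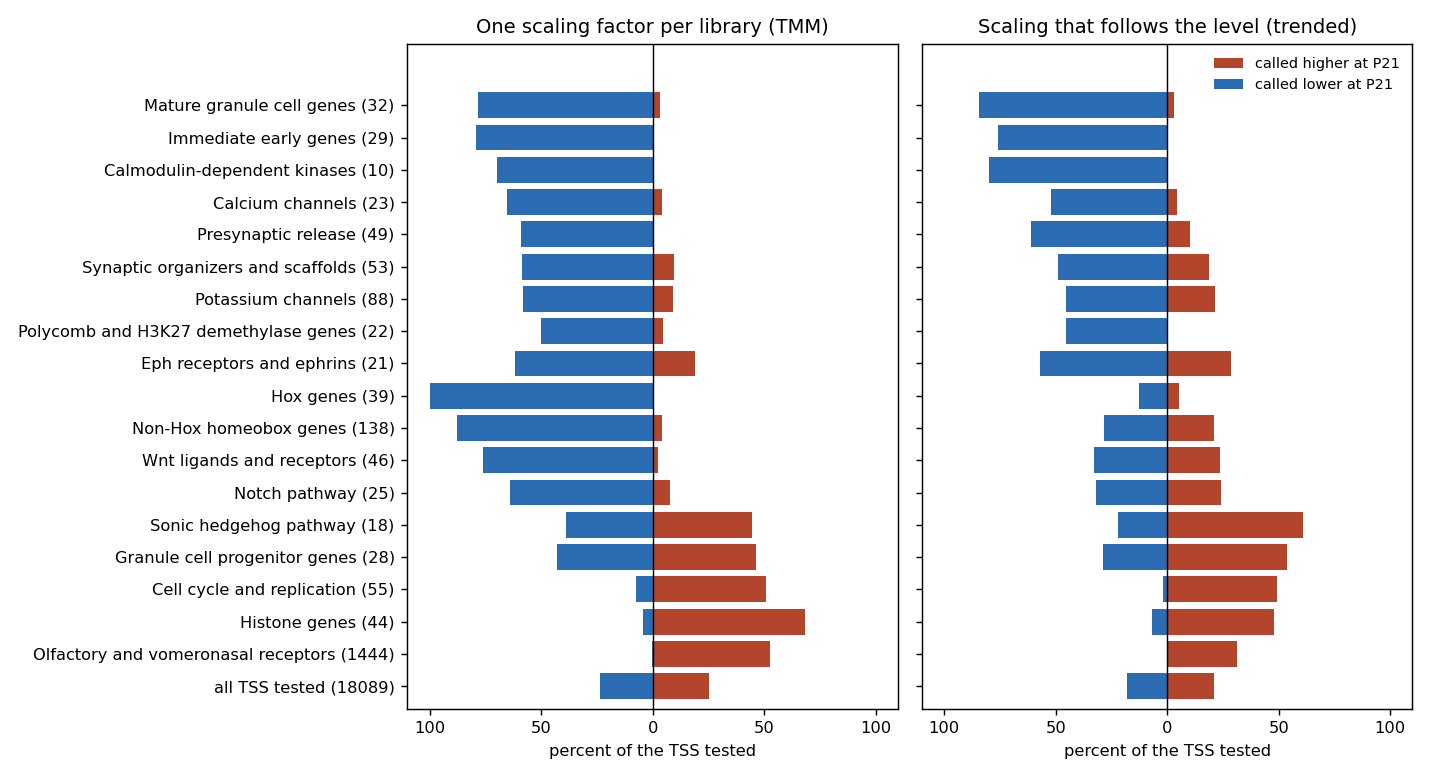
Percent of the TSS tested in each gene list called higher (right of 0) or lower (left of 0) at P21 than at P7, with TMM (left panel) and with the trended scaling (right panel); the number of TSS tested is in brackets and the last bar is all TSS. Calcium channel, release and immediate early genes are lower at over 50% of TSS in both panels, and potassium channel genes at 51 of 88 (left) and 40 of 88 (right); Hox genes are all lower with TMM and mostly uncalled with the trended scaling, and among cell cycle genes 28 of 55 (left) and 27 of 55 (right), and among histone genes 30 of 44 (left) and 21 of 44 (right), are higher.

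Hox genes are classical Polycomb targets. All 39 Hox genes were tested, and all 39 were called lower with TMM, at log2 fold changes of -1.83 to -2.63, close to the -2.05 of the highest decile of TSS. After trended scaling 5 were lower and 2 higher, with a median of 0.02. Their medians were 239 CPM at P21 and 1063 CPM at P7, with ranges of 22.6 to 373 CPM at P21 and 79.6 to 1632 CPM at P7, and all 39 had a peak within 1 kb in at least 2 libraries of each stage. Hoxb8, which was called lower with both scalings, had 166, 161, 200, 99.0 and 279 CPM at P21 and 1224, 1319, 1057, 1085 and 919 CPM at P7 (-2.63 with TMM and -0.61 with the trended scaling). Hoxc9 had -2.37 with TMM and -0.11 with the trended scaling, where it was not called. Of 138 other homeobox genes 121 fell and 6 rose with TMM. With both scalings 38 fell and 5 rose. Pou2f2 (-3.23 and -2.45 with the trended scaling) and Otx2 (-2.54 and -0.97) were among the 38, and Tshz2 (2.59), a teashirt zinc finger gene, and Pou3f2 (2.48), a factor gene of migrating neurons, were among the 5.

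In other families of transcription factors, too, only a part of the genes called lower with TMM were lower with both scalings. T-box and Gata genes were lower at 15 of 20 TSS with TMM and at 4 with both scalings, Tbr1 (-2.46 and -0.90) and Eomes (-2.57 and -1.77) among them. Sox genes were lower at 12 of 18 and at 3 with both scalings. Sox10 was lower with both, and Sox9 and Sox11 (2.45) rose with both. Forkhead genes were lower at 27 of 37 and at 9 with both scalings, with Foxh1 (-4.23) and Foxo1 (-3.64) the clearest. Foxp2, a marker gene of Purkinje cells, rose by 1.94. Of 44 genes of basic helix-loop-helix factors 29 were lower with TMM and 10 with both scalings. Atoh8 (16.1 CPM at P21 against 651 CPM at P7, -5.34) and the clock-related repressor gene Bhlhe41 (8.52 against 344 CPM, -5.19) fell with both scalings. Nuclear receptor genes fell at 20 of 36 TSS and at 14 with both scalings, with the retinoic acid receptor genes Rara (-5.27) and Rarg (-4.15) falling and Rarb (1.17) and the estrogen receptor gene Esr1 (1.38) rising.

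The 12 TSS with the highest level at both stages were Stap2, Tbx20, Klf14, Hoxd10, Ptf1a, Dmrta2, Neurog1, C1ql4, Gbx2, Dio3, Wnt1 and Foxe3. Most are transcription factor genes of other lineages, such as Ptf1a, the gene that specifies inhibitory cerebellar neurons. Ptf1a had 224, 322, 473, 375 and 458 CPM at P21 and 903, 990, 1226, 1031 and 856 CPM at P7 (-1.47, SE 0.22). Stap2, a signalling adaptor gene, had 158, 292, 730, 666 and 421 CPM at P21 and 570, 615, 1226, 1211 and 760 CPM at P7 (-1.04, SE 0.23), so its libraries overlapped and replicates 1 and 2 were lowest at both stages. Despite these counts, no H3K27me3 library of either stage had a peak within 1 kb of the Stap2 TSS. Its highest libraries at both stages were replicates 3 and 4, whose input libraries had peaks at 21.3% to 42.5% of all TSS. Levels are not corrected for input, and whether the Stap2 counts reflect H3K27me3 was not tested. All 12 were called lower with TMM, at -1.04 to -2.12, and all 12 were called higher with the trended scaling, at 0.37 to 1.32. Their direction therefore depends on the scaling.

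Secreted signals of development divided along similar lines. Of 46 genes of Wnt ligands, Frizzled receptors and antagonists 35 fell and 1 rose with TMM, and 15 and 1 with both scalings. Wnt7a, a ligand gene of granule cells that acts on mossy fibre terminals, had 10.5, 13.8, 23.3, 25.8 and 25.8 CPM at P21 and 649, 753, 1338, 1085 and 704 CPM at P7 (-5.53, SE 0.29). No P21 library came near P7. Wnt11 fell by 3.08 and Wnt7b by 2.58, and Sfrp2, the gene of a secreted antagonist, had 0.67, a call lost without P7 replicate 4 (edgeR adjusted p = 0.0549). Of 27 genes of fibroblast growth factors and receptors 20 fell with TMM and 12 with both scalings, Fgf17 (-2.56) and Fgf11 (-2.21) among them. Of 25 Notch pathway genes 16 fell with TMM and 8 with both. Dll4 (-3.72), a ligand gene, and Hes5 (-3.91), a target gene in glia and stem cells, fell, and Mfng (1.94), a modifier gene of the receptor, rose. Of 50 genes of the BMP, TGF-beta and activin pathway 27 fell with TMM and 12 with both; Fstl4 fell by 5.47, whereas Tgfb2 rose by 2.09 and Bmpr1b, a receptor gene, by 1.22.

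The Sonic hedgehog pathway, which drives progenitor division, moved in part the other way. Of 18 genes tested 8 rose with both scalings and 7 fell with TMM, 4 of them with both. Gli2, the gene of the main activating transcription factor, had 86.9, 119, 226, 181 and 198 CPM at P21 and 28.7, 27, 21.2, 17 and 22.5 CPM at P7 (2.81, SE 0.28). Smo, the gene of the signal transducer, had means of 35.1 CPM at P21 and 4.81 CPM at P7 (2.62), and Disp1, which is needed to release the ligand, rose by 2.59. Gas1 is described above. Cdon, another co-receptor gene, fell by 3.58, and Dhh, a related ligand gene, by 2.94.

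Of 28 genes of granule cell progenitors 13 rose and 12 fell, and 12 and 8 with both scalings, so the list did not move as one. Cxcr4, a chemokine receptor gene that holds progenitors at the surface, rose by 2.92 (145 CPM at P21 against 19.2 CPM at P7). Gli2, Gas1 and Trib2 rose, while Rgma, a guidance gene, fell by 3.47. H3K4me3 was lower at P21 at 23 of 27 of these TSS with TMM, against 10.6% of all TSS tested for both marks. Atoh1, the transcription factor gene that defines progenitors, had 108, 140, 226, 160 and 207 CPM at P21 and 89.6, 108, 93.9, 117 and 105 CPM at P7 (0.69, SE 0.22, edgeR adjusted p = 0.00941), so it carried the mark at both stages and its libraries overlapped. Of 32 genes of mature granule cells 25 fell and 1 rose with both scalings. Cacna1g, Cacna1e, Gabrd and Grin2c had the smallest adjusted p. The 1 that rose was Ppp1r17 (0.62, edgeR adjusted p = 0.0381), which is on this list although it encodes a phosphatase inhibitor of Purkinje cells. Its call was lost in 6 fits that left out 1 library, P21 replicate 1, 3 or 5 or P7 replicate 1, 2 or 4 (edgeR adjusted p = 0.0567 to 0.0968). H3K4me3 was higher at 12 of those 32 TSS and lower at 2, against 10.9% and 10.6% of all TSS tested for both marks. Of 25 genes of immature and migrating cells 12 fell and 3 rose.

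Of 55 genes of the cell cycle and replication 28 rose and 4 fell with TMM, and 24 rose and 0 fell with both scalings. Tk1, thymidine kinase, had 97.4, 87.3, 136, 94.7 and 152 CPM at P21 and 16.9, 3, 3.03, 11.9 and 21 CPM at P7 (3.17, SE 0.31). Mki67, the gene of the proliferation antigen Ki-67, had 26.3, 34.5, 100, 80.7 and 51.6 CPM at P21 and 5.07, 9, 0, 7.66 and 2.99 CPM at P7 (3.47, SE 0.38). The groups did not overlap at either gene. Cdca7, a chromatin gene of dividing cells, rose by 2.99. Ccnd1, cyclin D1, and Cdkn2a, an inhibitor locus that Polycomb is known to silence, were lower with TMM (-1.14 and -1.72) and not called with the trended scaling. H3K4me3 was lower at P21 at 40 of 54 of these TSS and higher at 0, against 10.6% and 10.9% of all TSS tested for both marks. It was also lower at 29 of 39 ribosomal protein TSS, and at 683 of 1767 TSS in the lowest H3K27me3 decile, and the difference between these shares was not tested. With replicates 1 and 2 only, 17 of the cell cycle genes were called higher.

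Of 44 histone genes 30 rose and 2 fell with TMM, and 21 rose with both scalings. H3c2 (35.3 CPM at P21 against 4.74 CPM at P7, 2.84), H2ac4 (2.43) and H4c18 (2.16) rose, and H3f4, a testis histone variant gene, fell by 3.15. Most stood at a low level: the medians were 17.8 CPM at P21 and 7.39 CPM at P7, and 2 of 44 had a peak at P21. The genes are near-identical copies in clusters, so reads can be split between them. Without P21 replicate 3 or P7 replicate 4 the count was 19. Of 40 ribosomal protein genes 11 rose and 2 fell with TMM, and 5 and 1 with both scalings, at medians of 13.9 CPM at P21 and 7.42 CPM at P7. The share that rose with TMM, 27.5%, was near the 25.4% of all TSS, and 5% fell against 23.5%. With both scalings 16.3% of all TSS rose and 16.4% fell.

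Genes of nuclear factor I, Ebf, Zeb and Tox factors rose at 8 of 21 TSS and fell at 7, and at 7 and 3 with both scalings. Zeb2 had 97.4, 66.6, 228, 107 and 114 CPM at P21 and 10.1, 6.00, 15.1, 7.66 and 5.99 CPM at P7. Ebf3 (2.17) and Nfia (2.43), which encode factors of neuronal and glial differentiation, rose, and Scrt1, a neuronal repressor gene, fell by 2.50. Zfp36l2, which encodes an RNA-binding protein that destabilises transcripts, rose by 3.03, with means of 171 CPM at P21 and 21 CPM at P7. In the insulin-like growth factor pathway Igfbpl1, a gene of granule cell progenitors, rose by 3.04 (253 CPM at P21 against 28.7 CPM at P7), and Igf2bp3, the gene of a fetal RNA-binding protein, by 0.99, whereas Igfbp2 fell by 3.28. Genes of amino acid transport were among the solute carriers that rose, Slc1a4 by 3.47 and Slc1a5 by 1.96; of 275 solute carrier genes 110 fell and 41 rose, and 70 and 28 with both scalings.

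Of 22 genes of Polycomb proteins and H3K27 demethylases 11 fell and 1 rose with TMM, and 10 fell and 0 rose with both scalings. Cbx7, a reader of the mark in Polycomb repressive complex 1, had 7.90, 20.7, 20.4, 17.2 and 19 CPM at P21 and 279, 312, 312, 276 and 244 CPM at P7 (-4.05, SE 0.29). Cbx2, which encodes a reader of the same family, fell by 2.52. Epop, the gene of a PRC2 partner, fell by 1.93. Rnf2, a catalytic subunit gene of Polycomb repressive complex 1, was higher with TMM (1.34), but it was not called with the trended scaling, nor without P7 replicate 3 or P7 replicate 5 (edgeR adjusted p = 0.0512 to 0.098).

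Markers of other cells of the cerebellum did not move as one group. Of 17 interneuron markers 13 were lower with TMM, but with both scalings 4 fell and 3 rose. Kit, a receptor gene of molecular layer interneurons, had 97.4, 133, 213, 143 and 224 CPM at P21 and 25.4, 30.0, 21.2, 21.3 and 25.4 CPM at P7 (2.72, SE 0.27). Of 13 marker genes for the cerebellar nuclei and for unipolar brush cells 12 were lower with TMM and 8 with both scalings, Calb2 (-3.93) among them. Of 16 Purkinje cell markers 8 fell and 6 rose (3 and 6 with both); Calb1 fell by 2.24. Of 19 astrocyte and Bergmann glia markers 7 rose and 7 fell with TMM, and 7 and 2 with both. Hopx (2.51) and Sox9 rose and Hes5 fell. Of 17 oligodendrocyte markers 9 fell and 1 rose, and 5 and 1 with both. Of 17 markers of microglia and blood 5 rose and 2 fell, with the pan-leukocyte gene Ptprc at 40.3 CPM at P21 and 14.3 CPM at P7 (1.38). Of 17 vascular and meningeal markers 6 fell and 4 rose, and 1 and 3 with both. Over all TSS 23.5% fell and 25.4% rose with TMM, and 16.4% and 16.3% with both scalings. The part of other cells in these differences was not tested.

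Families expressed in other tissues were counted in the same way. Of 1444 olfactory and vomeronasal receptor genes 761 rose and 6 fell with TMM, and 428 and 3 with both scalings. Their medians were 36.9 CPM at P21 and 19.6 CPM at P7, a median log2 fold change of 0.74. Olfr1120, shown above, had 60.5, 62.0, 37.8, 33.4 and 46.2 CPM at P21 and 18.6, 18, 12.1, 8.51 and 13.5 CPM at P7 (1.79, SE 0.29), without overlap. Few carried a called peak, 102 of 1444 at P21. H3K4me3 was higher at P21 at 247 of 1389 and lower at 0, against 10.9% and 10.6% of all TSS tested for both marks. Such calls depend on the scaling and on single libraries. Over all TSS, those higher in both marks numbered 455 with TMM and 33 with trended H3K4me3. Without P7 replicate 1 of H3K4me3 they numbered 114, and without P7 replicate 2 they numbered 1798. With replicates 3 to 5 of H3K27me3 only, 64 of the olfactory and vomeronasal receptor genes were called higher in H3K27me3. Serpin genes rose at 19 of 57 TSS (33.3%) and fell at 1. Keratin genes rose at 22 of 106 (20.8%) and fell at 11. Over all TSS 25.4% rose and 23.5% fell with TMM. With both scalings serpin genes rose at 8 and fell at 1, and keratin genes rose at 13 and fell at 4, against 16.3% and 16.4% of all TSS. Imprinted genes fell at 15 of 31 TSS and rose at 6, and at 8 and 5 with both scalings. Meg3, a maternally expressed non-coding RNA gene, had 10.5, 20.7, 48.5, 22.6 and 21.7 CPM at P21 and 277, 261, 209, 330 and 248 CPM at P7 (-3.35, SE 0.28). Ube3a rose by 2.57 and Snrpn by 1.54; both lie in the same imprinted region.

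By annotated type, protein-coding genes were higher at 3750 and lower at 3811 of 15226 TSS. Against 25.4% higher and 23.5% lower over all TSS, 475 of 1627 long non-coding RNA genes rose (29.2%) and 297 fell (18.3%), and 252 of 801 microRNA genes rose (31.5%) and 102 fell (12.7%). Transcribed pseudogenes rose at 84 of 291 TSS (28.9%) and fell at 22 (7.56%).

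On the X chromosome few TSS rose. Of 870 TSS tested 27 rose (3.10%) and 180 fell (20.7%), and 15 and 139 with both scalings. The median log2 fold change on the X was -0.37 (TMM) or -0.45 (trended), whereas the medians of the 19 autosomes lay between 0.11 and 0.55 with TMM and between 0.11 and 0.38 with the trended scaling. The share higher on autosomes lay between 19.2% and 31.2%, above that of the X, and the share lower between 16.8% and 30.7%, a range that holds that of the X. Without overlap between the stages 43 of the 870 X-linked TSS were lower and 8 higher, against 18.1% lower and 10.4% higher over all TSS. X-linked TSS took 3.8%, 3.5%, 3.09%, 1.74% and 3.09% of the counts in the P21 libraries and 1.58%, 2.65%, 1.70%, 3.02% and 1.97% in the P7 libraries, so the groups overlapped in this measure. H3K4me3 at X-linked TSS had a median log2 fold change of 0.42, close to the 0.52 over all TSS. The part of the animals' sex, which no label gives, was not tested.

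**Figure D4:**
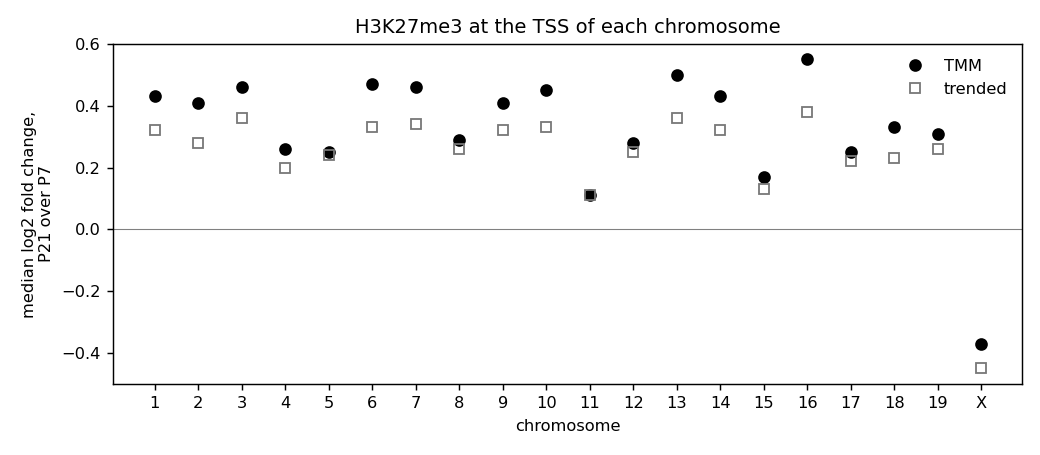
Median log2 fold change of H3K27me3 (P21 over P7) over the TSS tested on each chromosome, with TMM (circles) and with the trended scaling (squares). The X chromosome lies at -0.37 and -0.45, below all 19 autosomes.

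H3K4me3 was measured in other libraries of the same series, 2 at P21 and 3 at P7, and was tested at 16786 of the 18089 TSS. Its fit also held 2 libraries of P12. TSS that lost H3K27me3 were higher in H3K4me3 at 426 of 3880 (11%) and lower at 143 (3.69%). TSS that gained H3K27me3 were higher in H3K4me3 at 455 of 4388 (10.4%) and lower at 701 (16.0%). Over all TSS tested for both marks 10.9% were higher and 10.6% lower. With the trended scaling of H3K4me3, 427 of the TSS that lost H3K27me3 were higher and 42 lower, and 33 of the TSS that gained it were higher and 156 lower, against 3.25% higher and 2.01% lower over all. These H3K4me3 counts rest on few libraries: the 426 became 55 without P21 replicate 1, 78 without P21 replicate 2, 846 without P7 replicate 2 and 271 without P7 replicate 3. The 701 became 174 without P21 replicate 1, 234 without P21 replicate 2, 379 without P7 replicate 1 and 1078 without P7 replicate 2. H3K4me3 rose at Gabrd (2.23), Tmem59l (2.15), Car11 (1.94) and Cacna1g (1.74), where H3K27me3 fell. It fell at Zeb2os (-2.40), Tox3 (-1.92), Sox9 (-1.79), Gli2 (-1.78) and Mki67 (-1.63), where H3K27me3 rose. Junb and Tuba4a lost H3K27me3 with H3K4me3 not called (0.32 and 0.56), though Tuba4a was called higher with the trended scaling.

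**Figure D5:**
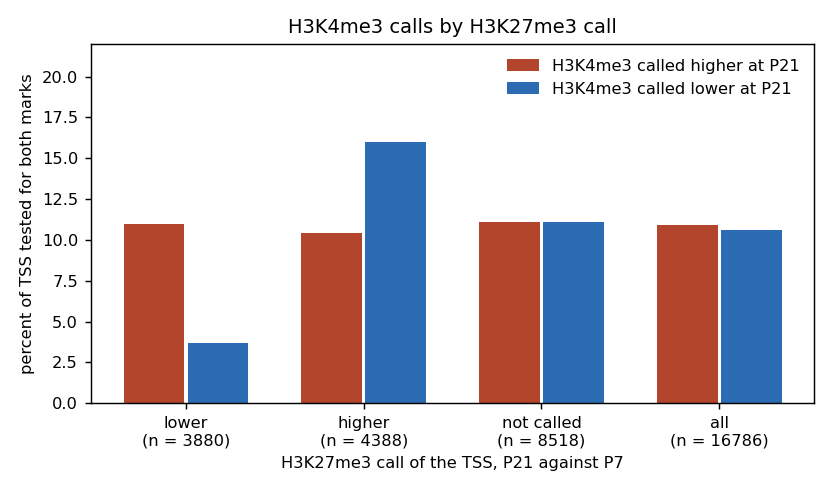
Percent of TSS called higher or lower in H3K4me3 at P21, among TSS called lower, higher or not called in H3K27me3 and among all TSS tested for both marks (n below each pair of bars). TSS lower in H3K27me3 were lower in H3K4me3 at 3.69% and TSS higher in H3K27me3 at 16.0%.

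A peak in the authors' lists within 1 kb of the TSS was found in at least 2 libraries at 4615 TSS at P21 and at 6720 at P7, and 3759 TSS had one at both stages. Of the 4245 TSS called lower, 1571 had a peak at P7 only, 2199 at both stages, 10 at P21 only and 465 at neither. Of the 4601 called higher, 551 had a peak at P21 only, 59 at P7 only, 302 at both and 3689 at neither, so most rises lay below the level at which peaks were called. With a peak needed in all 5 libraries, 1177 TSS had one at P21 and 3756 at P7. The lists of replicates 3 and 4 are less specific, since the peak lists of their input libraries covered 31.4% and 42.5% of all TSS at P21 and 38.4% and 21.3% at P7, against at most 0.89% for the other inputs. With both replicates 1 and 2 required, 1179 TSS had a peak at P21 and 3892 at P7.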

How the data were processed

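H3K27me3 and H3K4me3 were measured by ChIP-seq. The authors deposited a table of raw counts per TSS and a peak list per library whose score column is the authors' own value. HOMER 4.11, ChIPseeker 1.30.3 and the build mm10 are named in the submitters' processing notes. The aligner, counting window, strand use and pooling: not given in the sources used here. The deposited score was used only to read the peak lists, and peaks count as present or absent within 1 kb of a TSS. The table has 24045 TSS, of which 6 have missing values in the H3K27me3 columns.

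Counts were fitted with edgeR 4.0.16 (quasi-likelihood test, filterByExpr, TMM) in R 4.3.3 over all 14 H3K27me3 libraries, including 4 of P12, with stage and input arrangement as terms and Benjamini-Hochberg adjustment at 0.05 over all TSS tested. The trended scaling was a loess offset per library. DESeq2 1.42.0, other scalings, filters, subsets of libraries and leaving out each library were alternatives. The code was tested on simulated data. Precision is limited by the counts per library, which cover counting error only.

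Named genes were the 15 largest rises and 15 largest falls (adjusted p under 0.05, the higher stage's mean at 10 CPM or more, no overlap), the 12 TSS with the highest lower-stage mean, and within each list up to 4 members in its main direction and 2 in the other by smallest adjusted p, or all members of lists of 12 or fewer. Some genes that the rule picks are not reported here. Genes used to check the cell label were picked for that. The members and the 76 gene lists were chosen with earlier results of these data known, and 26 symbols that did not belong were removed from the lists after values were seen.

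Replicates 1 and 2 had the lowest chi-square per degree of freedom within each stage (1.41 at P21 and 1.55 at P7), though not the highest Spearman correlation. They differed by more than sampling noise, which does not show that they were separate preparations. Because they were counted separately, the SE and adjusted p of the main fit may be too small. With replicates 1 and 2 of each stage summed, 3013 TSS were higher and 4132 lower.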

Additional observations from a re-analysis of the deposited data

Results flagged for a closer look

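Among 436 groups of 5 libraries, 22 had a library apart from the other 4 by Dixon's criterion at 95%, where chance gives about 1 in 20. P7 replicate 3 was the library apart in 7. In it the 95th percentile of TSS counts was 45.0 times the median, against a median of 25.2 in the other P7 libraries. Its level was 18.2 CPM at Grin3a, 27.3 CPM at Pde5a, 39.4 CPM at Foxp2 and 36.3 CPM at Bmpr1b. It held 0 CPM at Hopx and at Snrpn.

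P7 replicate 2 stood apart at Car11 with 1367 CPM, at Gabrd with 765 CPM, at Chrna6 with 12 CPM and at Psat1 with 0 CPM. P7 replicate 4 had 45.9 CPM at Grin2b and 15.3 CPM at Rnf2, P7 replicate 5 had 18 CPM at Myc, and P7 replicate 1 had 8.45 CPM at Slc1a4, where the median of the others was 0.

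Among the P21 libraries, replicate 1 had 7.90 CPM at Cbx7 and 34.2 CPM at Calb2. Replicate 3 had 17.5 CPM at Chga and 107 CPM at Hopx, replicate 4 had 50.6 CPM at Kcnma1, and replicate 5 had 35.3 CPM at Pax6 and 42.1 CPM at Foxh1.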

How the results depend on the processing

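The count of TSS higher at P21 (4601) was 2592 at TSS with a peak, 12686 by library totals, 2474 with replicates 1 and 2 only, 3013 with these summed, 1654 with replicates 3 to 5 only and 2982 at a log2 fold change of at least 1. The count lower (4245) was 2476 at TSS with a peak and 2429 by library totals. Leaving out 1 library gave 3718 to 4676 higher and 3897 to 4452 lower.

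By library totals, 18 presynaptic, 20 synaptic organizer, 51 cell cycle and 1436 olfactory receptor genes were called in their main direction. At TSS with a peak the counts were 19 synaptic organizer, 16 cell cycle, 1 histone and 110 olfactory receptor genes. With the trended scaling they were 5 Hox, 39 other homeobox, 15 Wnt and 455 olfactory receptor genes. With replicates 1 and 2 only there were 17 cell cycle and 11 histone genes, with these summed 19 histone and 360 olfactory, and with replicates 3 to 5 only 13 histone and 64 olfactory. Histone genes numbered 15 with P21 and P7 libraries only. Olfactory genes numbered 441 without the input term and 341 at a log2 fold change of at least 1. Leaving out 1 library gave 19 to 27 histone and 526 to 836 olfactory genes.

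For both marks, leaving out 1 library gave 55 to 846 TSS lower in H3K27me3 and higher in H3K4me3, 23 to 293 lower in both, 6 to 1798 higher in both and 174 to 1078 higher in H3K27me3 and lower in H3K4me3. With trended H3K4me3 the last 3 were 42, 33 and 156. Peaks in every library left 1177 TSS at P21 and 3756 at P7. Peaks in both replicates 1 and 2, an alternative chosen after seeing the data, left 1179 and 3892.

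Of 4617 gene results under alternatives, 63 lost their call, 15 of them with replicates 1 and 2 only (among them Atoh1, Sox11, Scn3a, Gabra2, Grm7, Slc1a4 and Plxnb1), and 20 changed sign. With the trended scaling these were Stap2 (1.32), Tbx20 (0.67), Klf14 (0.89), Hoxd10 (0.37), Ptf1a (0.85), Dmrta2 (0.82), Neurog1 (0.71), C1ql4 (0.48), Gbx2 (0.50), Dio3 (0.67), Wnt1 (0.47), Foxe3 (0.55), Pax2 (0.38), Gad1 (0.029), Cldn5 (0.34), Grik3 (0.40) and Ccnd1 (0.077). Stap2 had 0.073 by library totals, and Cacng5 (-0.24) and Sfrp2 (-0.056) turned with replicates 1 and 2 only. The cause was not tested.

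With the replicate number as a block, 4974 TSS were higher and 4305 lower. Whether the numbers pair the samples cannot be decided from the correlations, which were mixed. Same-numbered libraries correlated at 0.293, 0.126, 0.269, 0.0289 and -0.0866, in the order of their numbers. P21 and P7 replicate 1 correlated best with each other (0.293), and so did P21 and P7 replicate 3 (0.269). All other libraries correlated best with a library of a different number.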
